A study of Mus musculus with 36 samples.

Results

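The SMADs of the BMP (bone morphogenetic protein) branch and the Id genes were followed as 10 transcripts: Smad1, Smad5, Smad9, Smad4, Smad6, Smad7, Id1, Id2, Id3 and Id4. They were chosen by name from the known pathway, though with earlier results of these data known. Each symbol matched a single Ensembl ID among the 51912 genes of the count tables. All 10 passed the filter on low counts in every comparison. RNA-seq libraries had been made from 36 whole muscles of 3-month-old male C57BL/6 mice, with 9 libraries in each of 4 groups: WT soleus, ∆Ig3-MuSK soleus, WT tibialis anterior (TA) and ∆Ig3-MuSK TA. The soleus is a slow, oxidative hindlimb muscle and the TA a fast one. ∆Ig3-MuSK mice are homozygous for a germline CRISPR-Cas9 deletion of exons 6 and 7 of Musk, which encode the BMP-binding Ig3 domain of the receptor kinase MuSK, and the allele was bred onto the C57BL/6 background of the WT mice. The mutant therefore lacks this domain in every cell that uses Musk, and no mouse was treated with a BMP. The paper found MuSK protein at the neuromuscular junctions of both muscles in the mutant. In WT soleus it was also seen outside the junctions, but in ∆Ig3-MuSK soleus it was not detected there. By qRT-PCR the paper also found less Musk transcript in the mutant soleus, so the mutant soleus differs from WT by more than the missing domain. In the EDL, another fast muscle, it found comparable Musk transcript in both genotypes, and the TA was not measured that way. The question was how transcripts of the BMP signal relay and of its classical targets stood in muscles whose MuSK could not bind BMP through Ig3.

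BMP ligands bind pairs of type I and type II receptor kinases, which phosphorylate the receptor-regulated SMADs SMAD1, SMAD5 and SMAD9. These join SMAD4, the partner shared with the TGF-β branch, and move to the nucleus to bind DNA. SMAD6 and SMAD7 are inhibitory SMADs that block receptors or their substrates, and their genes are themselves induced by the pathway as a negative feedback. The Id genes encode helix-loop-helix proteins without a DNA-binding region, which hold back bHLH factors such as MyoD, and they are widely used as a readout of BMP signaling. In muscle, activity of this pathway supports fiber mass, and Id proteins restrain myogenic differentiation. Transcript levels do not show SMAD phosphorylation. By Western blot the paper found phosphorylated SMAD1 and SMAD5 at similar levels in both genotypes in soleus and TA extracts. In cultured ∆Ig3-MuSK myoblasts it found less of this phosphorylation after BMP4. The paper also reported no changes among BMP pathway members in its RNA-seq analysis.

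The total count of a library lay between 43492062 and 60426556 in the soleus and between 49287472 and 78660422 in the TA, with a higher median in the ∆Ig3-MuSK soleus (51110940) than in the WT soleus (45371395). Levels are given as CPM, read counts relative to the library total, scaled together over the 36 libraries with TMM factors, and levels of different genes are compared only as CPM per kilobase of exon. Slow fiber markers summed to 18442 CPM in WT soleus and 77.7 CPM in WT TA, and all 6 were higher in the soleus, as the muscle labels say. Musk itself, counted over all its exons, stood at 15.2 ± 1.82 CPM in WT soleus and 11.3 ± 3.29 CPM in ∆Ig3-MuSK soleus (SD, n = 9 each), and at 4.25 ± 0.948 and 3.09 ± 0.391 CPM in the TA. The ranges of the genotypes overlapped in both muscles, and the log2 fold changes of −0.44 in the soleus (edgeR adjusted p = 0.0978) and −0.46 in the TA (edgeR adjusted p = 0.135) did not pass the test. These counts do not isolate the deleted exons.

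RefSeq promoter windows (GRCm38.p6, the 250 bases before a start site) were examined for 7 of the 10 genes, in 9 windows. Those of Id1, Smad4 and Smad7 were not examined, so the counts below say nothing about these genes. As strings of letters bound by SMADs, the palindrome GGCGCC and the shorter CAGAC were searched on both strands. GGCGCC was present before a start site of 4 of the 7 genes (Smad9, Id2, Id4 and Smad5) and in 9.59% of 32851 promoter windows of all genes. The shorter string was present before 2 genes (Id3 and Smad5) and in 42.2% of all windows. The figures for these genes count a gene with any window, and Smad5 had several, while the percentages count single windows. The 2 kinds of figure are therefore not like for like. The windows of the 7 genes held 60.0% to 75.6% G and C, and no background of like content was made, so an enrichment was not tested. The windows of Smad9 and Smad6 are printed because these were the 2 genes whose level differed most between the soleus and the TA. The capitals mark GGCGCC, which begins at position −51 from the Smad9 start, and the Smad6 window holds neither string.
Smad9, chr3:54755332-54755581, plus strand: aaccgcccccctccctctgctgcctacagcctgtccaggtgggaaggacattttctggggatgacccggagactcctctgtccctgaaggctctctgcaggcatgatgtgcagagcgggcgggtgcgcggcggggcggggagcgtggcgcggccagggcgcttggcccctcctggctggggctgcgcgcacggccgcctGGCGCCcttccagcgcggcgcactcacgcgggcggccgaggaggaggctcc
Smad6, chr9:64022060-64022309, minus strand: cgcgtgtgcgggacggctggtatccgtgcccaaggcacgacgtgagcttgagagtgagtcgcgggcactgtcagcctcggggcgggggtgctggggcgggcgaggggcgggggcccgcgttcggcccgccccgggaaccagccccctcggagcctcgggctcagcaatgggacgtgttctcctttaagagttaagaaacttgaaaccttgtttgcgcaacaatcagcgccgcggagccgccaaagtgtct
A match of so few letters is a description of the window and not a binding site. The G and C content of these windows was 73.2% for Smad9 and 66.8% for Smad6.

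On the GRCm38 assembly the 10 genes are spread over 8 chromosomes. Smad1 lies on chromosome 8 (79338395 to 79399518), Smad5 on chromosome 13 (56703010 to 56742377), Smad9 on chromosome 3 (54755582 to 54801257) and Smad6 on chromosome 9 (63953076 to 64022059), while Smad4 (73639009 to 73703780) and Smad7 (75367529 to 75395935) share chromosome 18. Id1 lies on chromosome 2 (152736251 to 152737410), Id2 on chromosome 12 (25093799 to 25097140), Id3 on chromosome 4 (136143497 to 136145755) and Id4 on chromosome 13 (48261228 to 48266026). Values are sums over all annotated exons of each gene. The libraries carried no strand information, and 171 exonic bases of Id4 (4.44%) overlap annotated genes on the other strand, so reads there cannot be told apart by strand. Of these genes, A330033J07Rik (82 bases) was in the count tables and Gm49291 (171 bases) was not. Of Smad5, 100 bases (1.35%) overlap a small RNA gene on the same strand.

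Per kilobase of exon, Id1, Id3 and Smad4 were the most abundant of the 10 transcripts in every group and Smad9 the least. In WT soleus, Id1 stood at 10.7 ± 4.81, Smad4 at 10.2 ± 0.442 and Id3 at 9.95 ± 2.498 CPM per kilobase (SD, n = 9), and the ranges of these neighbours overlapped. Smad5 followed at 4.10 ± 0.190, below each of them in all 9 libraries, and then Smad6 (1.89 ± 0.272), Smad7 (1.82 ± 0.231) and Smad1 (1.78 ± 0.104), which overlapped one another. Id2 (1.11 ± 0.229), Id4 (0.393 ± 0.0696) and Smad9 (0.0591 ± 0.0228) each lay below their upper neighbour without overlap. In WT TA, Id3 ranked first at 12.1 ± 1.02, Smad6 stood at 2.99 ± 0.300 and Smad7 at 2.38 ± 0.232, and Smad7 was above Smad1 (1.55 ± 0.119) in all 9 libraries.

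The makeup of each family can be read from the same scale. Smad5 made up 69.1% ± 1.60 of the summed Smad1, Smad5 and Smad9 levels in WT soleus and 70.3% ± 1.68 in WT TA, and its share lay between 66.3% and 74.1% in all 36 libraries. Smad9 made up 0.999% ± 0.385 in WT soleus and 2.56% ± 0.902 in WT TA. Id1 and Id3 together made up 92.4% ± 3.36 of the summed Id levels in WT soleus and 94.6% ± 0.881 in ∆Ig3-MuSK TA, the lowest and the highest group mean. The inhibitory SMADs over the receptor-regulated ones (Smad6 plus Smad7 over Smad1, Smad5 and Smad9) came to 0.626 ± 0.0635 in WT soleus, 0.637 ± 0.0844 in ∆Ig3-MuSK soleus, 0.944 ± 0.0842 in WT TA and 0.845 ± 0.111 in ∆Ig3-MuSK TA (SD, n = 9 each). The WT ranges did not overlap, from 0.529 to 0.720 in the soleus and from 0.791 to 1.04 in the TA. Those of ∆Ig3-MuSK did, from 0.501 to 0.758 and from 0.691 to 1.04. These ratios are descriptions and were not tested.

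**Figure D1:**
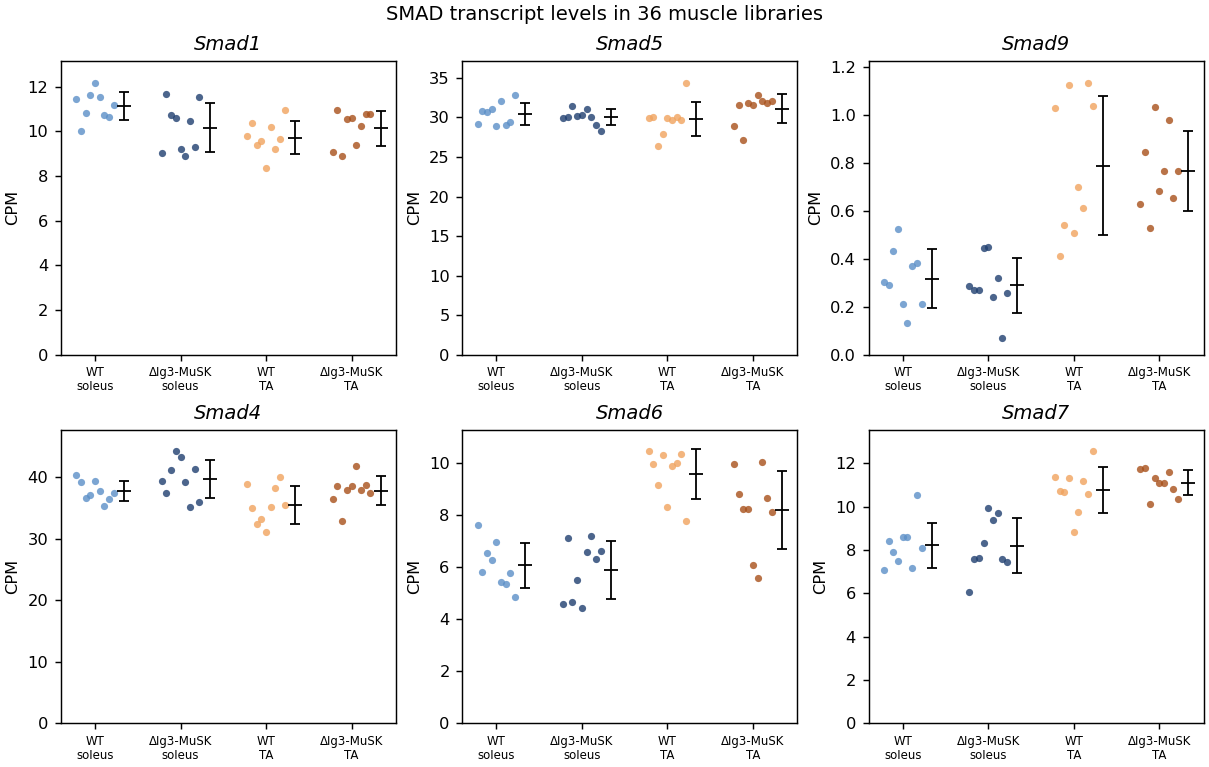
Level of each SMAD transcript in the 36 libraries, in CPM on linear axes that start at 0. Each point is a library, and the black mark and bar give the mean and SD of the 9 libraries of a group. Smad9, Smad6 and Smad7 sit lower in both soleus groups than in both TA groups, while the genotypes overlap within each muscle for all 6 genes.

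In the soleus, none of the 10 transcripts passed the test for genotype. The counts of calls were 0 higher and 0 lower in ∆Ig3-MuSK (edgeR's quasi-likelihood test, adjusted p under 0.05 and at least a 1.2-fold change), against 0.952% of the 19439 genes tested (0.365% higher, 0.586% lower). At an unadjusted p under 0.05 there were 2 of the 10 (Smad1 and Id4), against 18.5% of all genes, and DESeq2 and limma-voom also called 0. Of the 10 log2 fold changes, 9 were below 0, with a median of −0.14 beside −0.0017 over all genes tested. No transcript had ranges that parted the genotypes, as 0.0772% of all genes did. The p-values measure the spread among these libraries, each from the muscle of a separate animal.

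Smad5, Smad4 and Smad1 had the narrowest intervals of the 10. Smad1 ranged from 10.03 to 12.2 CPM in WT soleus (median 11.2) and from 8.91 to 11.7 CPM in ∆Ig3-MuSK soleus (median 10.5). The ranges overlapped, with 4 ∆Ig3-MuSK libraries below every WT library, and the log2 fold change was −0.14 (unadjusted 95% interval −0.27 to −0.019, edgeR adjusted p = 0.201). Smad5 ranged from 29.0 to 32.9 CPM in WT (median 30.6) and from 28.3 to 31.4 CPM in ∆Ig3-MuSK (median 30.1), with a log2 fold change of −0.03 (95% interval −0.10 to 0.04), which leaves out a 1.2-fold change either way. Smad9 was near the lower limit of counting, with 3 to 25 reads per soleus library, and its interval of −0.69 to 0.43 around −0.13 admits large changes in both directions. Smad4, the common partner, was at 37.7 ± 1.64 CPM in WT and 39.6 ± 3.12 CPM in ∆Ig3-MuSK, and was the only one of the 10 with a log2 fold change above 0 (0.06, interval −0.03 to 0.15).

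The inhibitory SMADs had nearly equal genotype means in the soleus. Smad6 ranged from 4.86 to 7.63 CPM in WT (median 5.83) and from 4.43 to 7.19 CPM in ∆Ig3-MuSK (median 6.31), with a log2 fold change of −0.06 (interval −0.27 to 0.16). Smad7 ranged from 7.09 to 10.5 CPM in WT (median 8.10) and from 6.08 to 9.96 CPM in ∆Ig3-MuSK (median 7.65), with a log2 fold change of −0.01 (interval −0.21 to 0.18). The ranges overlapped for both genes, with 3 ∆Ig3-MuSK libraries below every WT library for Smad6 and 1 for Smad7.

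All 4 Id genes had lower means in the ∆Ig3-MuSK soleus, and none passed the test. Id1, the Id gene most used as a BMP readout, ranged from 5.33 to 19.4 CPM in WT (median 13.4) and from 5.09 to 19.0 CPM in ∆Ig3-MuSK (median 9.65). Low and high libraries were found in both genotypes, and the log2 fold change of −0.33 had an interval of −0.91 to 0.26 (edgeR adjusted p = 0.563). Id3 ranged from 9.46 to 25.3 CPM in WT (median 17.5) and from 10.6 to 24.7 CPM in ∆Ig3-MuSK (median 16.6), with a log2 fold change of −0.17 (interval −0.52 to 0.18). Id2 stood at 2.72 ± 0.558 CPM in WT and 2.37 ± 0.532 CPM in ∆Ig3-MuSK, a log2 fold change of −0.21 (interval −0.51 to 0.10). Id4, the least abundant of the Id genes, ranged from 0.912 to 1.78 CPM in WT (median 1.57) and from 0.895 to 1.82 CPM in ∆Ig3-MuSK (median 1.06). Its log2 fold change was −0.34 (unadjusted 95% interval −0.64 to −0.035, edgeR adjusted p = 0.218), and 43 to 102 reads stood behind each value.

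**Figure D2:**
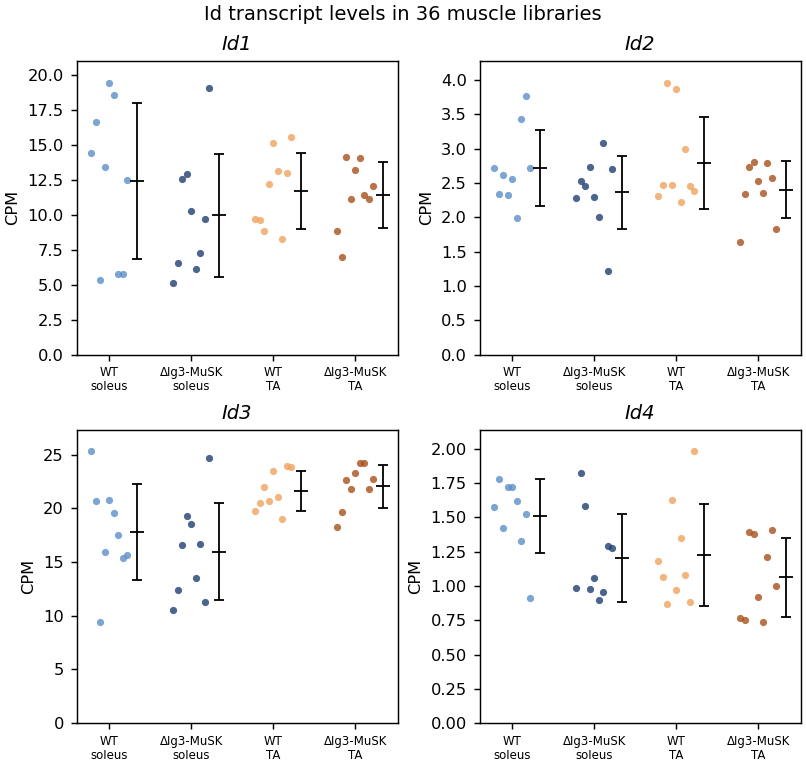
Level of each Id transcript in the 36 libraries, in CPM on linear axes that start at 0. Each point is a library, and the black mark and bar give the mean and SD of the 9 libraries of a group. Id1 runs from 5.09 to 19.4 CPM in the soleus and from 6.99 to 15.6 CPM in the TA, and Id3 is tightly grouped in the TA and widely spread in the soleus.

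Other signals moved with genotype in the soleus. Of 12 clock genes, 7 rose (Ciart by 1.65 on the log2 scale, Per2 by 1.42, Dbp by 1.23, Per3 by 0.94, Tef by 0.48, Nr1d2 by 0.47 and Bhlhe41 by 0.45, edgeR adjusted p from 0.0134 to 0.0339). Npas2 fell by 1.18 and Arntl by 0.78. All 12 immediate early genes had a log2 fold change below 0, with 1 of them, the transcription factor gene Egr3, passing the test (−1.56, edgeR adjusted p = 0.0459). Markers of endothelial cells, in which Id1, Id3, Smad6 and Smad7 are known to be active, summed to between 460 and 601 CPM in WT soleus and between 436 and 551.9 CPM in ∆Ig3-MuSK soleus. None of the 12 passed the test, 10 were below 0, and none had a mean under 1 CPM in any group. Of 8 smooth muscle and pericyte markers, 6 were below 0 and 1 passed the test, the actin gene Acta2, which fell by 0.38 (edgeR adjusted p = 0.0496). Of 6 satellite cell markers, 3 were below 0 and 1 passed, the proteoglycan gene Sdc4, which fell by 0.37 (edgeR adjusted p = 0.0381), while Pax7 stood at −0.05 and Myf5 at 0.05. In the remaining marker lists no gene passed. All 7 fibroblast and all 6 macrophage markers were below 0, and all 6 Schwann cell and all 7 fast fiber markers above 0. Slow fiber markers were split, 3 above and 3 below. The part of these signals in the values of the 10 transcripts was not tested, and in whole muscle fewer cells of a type and less RNA per cell cannot be told apart.

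In the TA, again none of the 10 transcripts passed the test, against 0.0149% of the 20075 genes tested (3 genes, all higher). At an unadjusted p under 0.05 there was 1 of the 10 (Smad6), against 24.1% of all genes, and DESeq2 and limma-voom called 0 of the 10. The ranges of the genotypes overlapped for all 10, and were apart for 0.0299% of all genes. The signs were split, 5 above 0 and 5 below, with a median of −0.0017 beside −0.0032 over all genes. Smad6 ranged from 7.76 to 10.4 CPM in WT TA (median 9.97) and from 5.58 to 10.03 CPM in ∆Ig3-MuSK TA (median 8.24). There were 2 ∆Ig3-MuSK libraries below every WT library, and the log2 fold change was −0.23 (unadjusted 95% interval −0.43 to −0.019, edgeR adjusted p = 0.184). Id1 ranged from 8.26 to 15.6 CPM in WT (median 12.1) and from 6.99 to 14.1 CPM in ∆Ig3-MuSK (median 11.4), a log2 fold change of −0.03 (interval −0.32 to 0.25). Id3 ranged from 19.0 to 24.0 CPM in WT (median 21.1) and from 18.3 to 24.2 CPM in ∆Ig3-MuSK (median 22.6), and its interval of −0.10 to 0.16 leaves out a 1.2-fold change.

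The other genes had similarly small values in the TA. Id2 stood at 2.80 ± 0.673 CPM in WT and 2.40 ± 0.415 CPM in ∆Ig3-MuSK, a log2 fold change of −0.21 (interval −0.49 to 0.06), close to its value in the soleus. Id4 had a log2 fold change of −0.21 (interval −0.58 to 0.16) and Smad9 one of −0.05 (interval −0.45 to 0.36). Smad1 (0.06), Smad5 (0.06), Smad4 (0.09) and Smad7 (0.04) were above 0, and the upper bounds of their intervals lay between 0.17 and 0.21. Of the clock genes, Dbp alone passed the test in the TA, rising by 0.90 on the log2 scale. No endothelial marker or immediate early gene passed it, and endothelial markers summed to between 370 and 463 CPM in WT and between 430 and 473 CPM in ∆Ig3-MuSK.

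**Figure D3:**
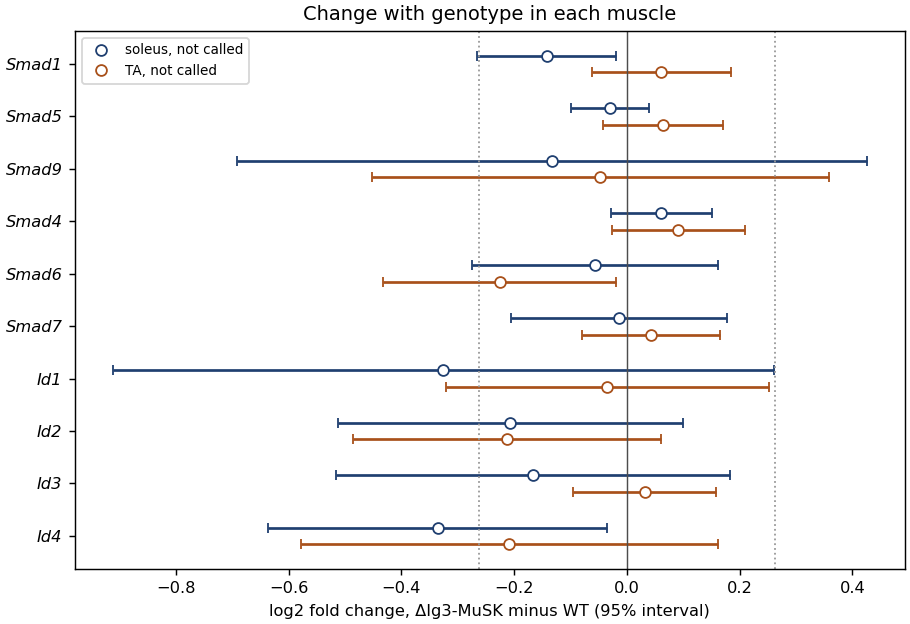
Log2 fold change of ∆Ig3-MuSK over WT for each transcript in the soleus (blue) and the TA (brown), with 95% intervals from edgeR's quasi-likelihood fit. The solid line marks no change and the dotted lines a 1.2-fold change. All 20 circles are open because none was called, and the intervals are widest for Smad9 and for Id1 in the soleus.

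Whether the genotype difference itself depended on the muscle was tested in a single fit over the 36 libraries. None of the 10 transcripts was called for this interaction by edgeR, DESeq2 or limma-voom, and edgeR called 0% of the 20841 genes tested while 24.9% had an unadjusted p under 0.05 and DESeq2 called 855 genes. Smad1 was the 1 transcript of the 10 under that unadjusted limit. Its genotype difference was lower in the soleus than in the TA by a log2 value of −0.19 (standard error 0.08, edgeR adjusted p = 0.150). For Id1 the difference between muscles was −0.28 with an interval of −0.95 to 0.38, which does not settle its direction.

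Between the muscles, Smad9, Smad6 and Smad7 were lower in the soleus than in the TA in both genotypes, and Id3 was lower in ∆Ig3-MuSK. Those are 3 of 10 transcripts called in WT and 4 of 10 in ∆Ig3-MuSK, all lower in the soleus. The background was large, since 57.5% of 20841 genes were called in WT (30.2% higher and 27.3% lower in the soleus) and 56.1% in ∆Ig3-MuSK (28.5% higher and 27.6% lower), so the share of the 10 is below that of all genes. At an unadjusted p under 0.05 there were 5 of the 10 in WT, against 69.6% of all genes, and 4 in ∆Ig3-MuSK, against 68.8%. The sample labels give 8 soleus and 8 TA libraries of each genotype a shared number, and whether it marks 1 animal is not stated. The deviations of these pairs from their group means correlated at 0.026 to 0.12 in WT, over 0.1 in 2 of 8 pairs, and at 0.032 to 0.28 in ∆Ig3-MuSK, over 0.1 in 5 of 8. All of these correlations were above 0, and the common estimate over all genes for libraries sharing a number was 0.127. The paper's figure legend gives 1 muscle per animal. The main comparison of the muscles did not use the number, which was a block in alternative fits only. If a number does mark 1 animal, the main test ignores that pairing. Calls in the same direction in both genotypes were made for 44.4% of all genes.

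Smad9 had the largest difference. It ranged from 0.134 to 0.524 CPM in WT soleus (median 0.302) and from 0.412 to 1.13 CPM in WT TA (median 0.698), with 7 of 9 soleus libraries below every TA library. In ∆Ig3-MuSK it ranged from 0.0678 to 0.451 CPM in the soleus (median 0.269) and from 0.527 to 1.03 CPM in the TA (median 0.767), without overlap. The log2 fold changes, soleus over TA, were −1.32 (standard error 0.23, edgeR adjusted p = 5.79e-06) and −1.39 (standard error 0.23, edgeR adjusted p = 2.54e-06), or 2.49-fold and 2.63-fold lower. Between 3 and 79 reads per library stood behind these levels.

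The inhibitory SMADs were also lower in the soleus. Smad6 reached 7.63 CPM at most in WT soleus and 7.76 CPM at least in WT TA, so the muscles did not overlap in WT, as was the case for 28.3% of all genes. Its log2 fold change was −0.66 (standard error 0.11, edgeR adjusted p = 1.14e-06). In ∆Ig3-MuSK the ranges overlapped, from 4.43 to 7.19 and from 5.58 to 10.03 CPM, and the log2 fold change was −0.48 (standard error 0.11, edgeR adjusted p = 0.000162). Smad7 showed the opposite pattern of overlap, with ranges of 7.09 to 10.5 and 8.84 to 12.6 CPM in WT and of 6.08 to 9.96 and 10.1 to 11.8 CPM in ∆Ig3-MuSK. It was 1.31-fold lower in the soleus in WT (log2 −0.39, edgeR adjusted p = 2.43e-05) and 1.36-fold lower in ∆Ig3-MuSK (log2 −0.44, edgeR adjusted p = 4.19e-06). In ∆Ig3-MuSK, Smad9 and Smad7 did not overlap between the muscles, against 29.4% of all genes.

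Among the Id genes, only Id3 in ∆Ig3-MuSK passed the test between the muscles. Id3 stood at 17.8 ± 4.47 CPM in WT soleus and 21.6 ± 1.83 CPM in WT TA, with 5 soleus libraries below every TA library and 1 above them all (log2 −0.28, standard error 0.13, edgeR adjusted p = 0.0555). In ∆Ig3-MuSK it stood at 15.95 ± 4.53 and 22.1 ± 1.99 CPM (log2 −0.47, standard error 0.13, edgeR adjusted p = 0.00176). The 2 genotypes are not shown to differ in this, since the interaction for Id3 was −0.19 with an interval of −0.56 to 0.18. In WT, Id3 passed the test with the other scaling factors tried and with the label number as a block (log2 −0.36, edgeR adjusted p = 0.0153). Id1 had log2 differences of 0.08 (interval −0.39 to 0.55) and −0.20 (interval −0.67 to 0.27), Id2 of −0.04 and −0.02, and Id4 of 0.30 and 0.18, none past the test.

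Smad5, Smad4 and Smad1 had small differences between the muscles, unlike Smad9. Smad5 ranged from 26.4 to 34.4 CPM over all 36 libraries, with log2 differences of 0.03 (interval −0.05 to 0.12) in WT and −0.05 (interval −0.13 to 0.03) in ∆Ig3-MuSK. Smad4 ranged from 31.0 to 44.2 CPM, with log2 differences of 0.09 and 0.07. Smad1 was 1.14-fold higher in WT soleus than in WT TA (log2 0.20, standard error 0.06, edgeR adjusted p = 0.00328), under the 1.2-fold limit, and its log2 difference in ∆Ig3-MuSK was 0.0041.

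**Figure D4:**
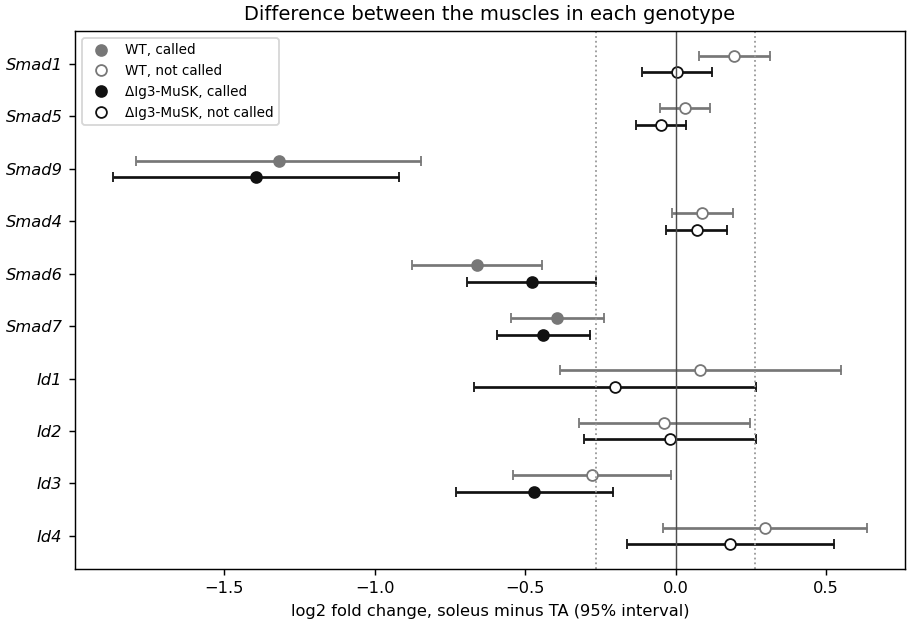
Log2 fold change of soleus over TA for each transcript in WT (grey) and ∆Ig3-MuSK (black), with 95% intervals from edgeR's quasi-likelihood fit over 36 libraries. Filled circles were called and open ones were not, and the dotted lines mark a 1.2-fold difference. The called values run from −1.39 for Smad9 to −0.39 for Smad7, all toward lower levels in the soleus.

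The cell types of the muscles differed alongside. Of 12 endothelial markers, 7 were higher and 1 lower in WT soleus than in WT TA, and 4 were higher and 1 lower in ∆Ig3-MuSK, so their direction was mostly opposite to that of Smad6, Smad7 and Id3. The summed endothelial level was 541.9 ± 41.4 CPM in WT soleus and 425 ± 33.8 CPM in WT TA, and 496 ± 43.3 and 451 ± 15.2 CPM in ∆Ig3-MuSK. Of 8 smooth muscle and pericyte markers, 6 were higher in WT soleus, and of 6 satellite cell markers 4 were. Over all genes, 30.2% were called higher in WT soleus and 28.5% in ∆Ig3-MuSK soleus. Fast fiber markers summed to 19368 ± 6551 CPM in WT soleus and 62532 ± 3812 CPM in WT TA. The part of cell makeup in the muscle differences was not tested.

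Around the 10 transcripts, the rest of the BMP pathway was counted from lists of ligands, receptors, antagonists, cofactors and targets. With genotype in the soleus, a single gene of these lists passed the test, Eng, the gene of the endothelial coreceptor endoglin. It ranged from 39.5 to 74.1 CPM in WT soleus and from 36.7 to 53.4 CPM in ∆Ig3-MuSK soleus, with a log2 fold change of −0.43 (standard error 0.10, edgeR adjusted p = 0.0364). The counts were 0 of 6 ligands tested, 1 of 13 receptors and coreceptors, 0 of 11 antagonists, 0 of 12 SMAD regulators and cofactors, 0 of 9 other reported targets and 0 of 7 bHLH partners of Id proteins. Over all genes tested the share called was 0.952%. In the TA none of these genes passed. The targets include Car3 and Wnt11, which the paper found less induced by BMP4 in cultured ∆Ig3-MuSK cells. In the soleus, the log2 fold change was 0.48 for Car3 (edgeR adjusted p = 0.0718) and −0.01 for Wnt11 (edgeR adjusted p = 0.955). In the TA the values were 0.03 and −0.12. The bHLH partners had a median log2 fold change of −0.09 in the soleus and −0.06 in the TA.

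Between the muscles most of these lists moved in both directions, as did all genes (30.2% called higher and 27.3% lower in WT soleus). Of 13 receptors and coreceptors, 5 were higher and 4 lower in WT soleus, led by Musk itself (log2 1.83) and the type I receptor gene Bmpr1b (log2 1.53, 8.73 CPM in the soleus and 3.01 CPM in the TA), with Eng at 0.75. Of 11 antagonists tested, 5 were higher and 3 lower, with the secreted antagonist Chrdl2 at 1.15 and the activin and BMP binder follistatin (Fst) at 1.00. Of 8 ligands, 4 were higher and 2 lower (Bmp8a −1.64, Gdf5 1.58 and Gdf6 1.07). These named ligands had low counts. Bmp8a failed the low-count filter in the soleus genotype fit, Gdf6 in that of the TA, and Gdf5 in both. Bmp5 came next in WT, at −1.06 (standard error 0.10). In ∆Ig3-MuSK the ligand Bmp5 stood at −1.47, the type II receptor gene Acvr2b at −0.62 and the antagonist Sostdc1 at 1.07.

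Of 12 SMAD regulators, 4 were lower and 2 higher in WT soleus, and 6 were lower and 1 higher in ∆Ig3-MuSK soleus. Over all genes, 27.3% were called lower and 30.2% higher in WT, and 27.6% and 28.5% in ∆Ig3-MuSK. In WT the antiproliferative SMAD partner Tob1 stood at −0.84 and Runx2 at −0.69, while Smurf1, the ubiquitin ligase that removes receptor-regulated SMADs, stood at 0.83. In ∆Ig3-MuSK the acetyltransferase gene Crebbp stood at −0.75. Of the TGF-β branch, Smad2 was higher in the soleus in both genotypes (log2 0.28 and 0.29) and Smad3 lower in WT (−0.46). Other reported BMP targets were mixed, 5 of 10 higher and 2 lower in WT, with the Notch and BMP target Hes1 at 1.02, the cell cycle inhibitor Cdkn1a at 1.22 and Dlx5, which was below 1 CPM in every library, at −2.80. Among the bHLH partners, Myod1 was lower in the soleus (log2 −1.26 in WT and −1.07 in ∆Ig3-MuSK) and Myog (0.74 in both) and Tcf12 (0.60 and 0.50) were higher.

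Id1 varied more between libraries than nearly all genes of its level. Its coefficient of variation was 44.97% in WT soleus and 44.3% in ∆Ig3-MuSK soleus, and 99.2% and 98.9% of the genes within 2-fold of its level in those groups had a lower one. The highest WT soleus library held 3.64 times the Id1 of the lowest. In the TA the coefficient was 23.2% in WT and 20.5% in ∆Ig3-MuSK, higher than for 90.6% and 94.8% of like genes. Id3 showed 25.1% and 28.4% in the soleus but 8.49% and 9.02% in the TA. Smad5 had 4.63% and 3.17% in the soleus, and Smad4 had 4.35% and 7.88%. The difference in spread between muscles was not tested.

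Id1 and Id3 moved together from library to library in both muscles. After genotype means were removed, their log2 CPM correlated at r = 0.745 in the soleus (n = 18, permutation p = 0.00029, adjusted p = 0.0130 over 45 pairs) and rho = 0.765 (permutation p = 0.00021, adjusted p = 0.00945). In the TA they correlated at r = 0.789 (n = 18, permutation p = 0.00049, adjusted p = 0.0220 over 45 pairs) and rho = 0.750 (permutation p = 0.00102, adjusted p = 0.0459). Without the 2 libraries farthest from the median of Id1, r was 0.631 in the soleus and 0.714 in the TA. In each muscle this was the single pair of the 45 to pass, and the median r over pairs was 0.04 in the soleus and 0.12 in the TA. With RLE factors the pair still passed by r in both muscles but not by rho in the TA. Id1 and Id3 are the 2 most abundant Id genes, and both values of a library share its scaling.

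**Figure D5:**
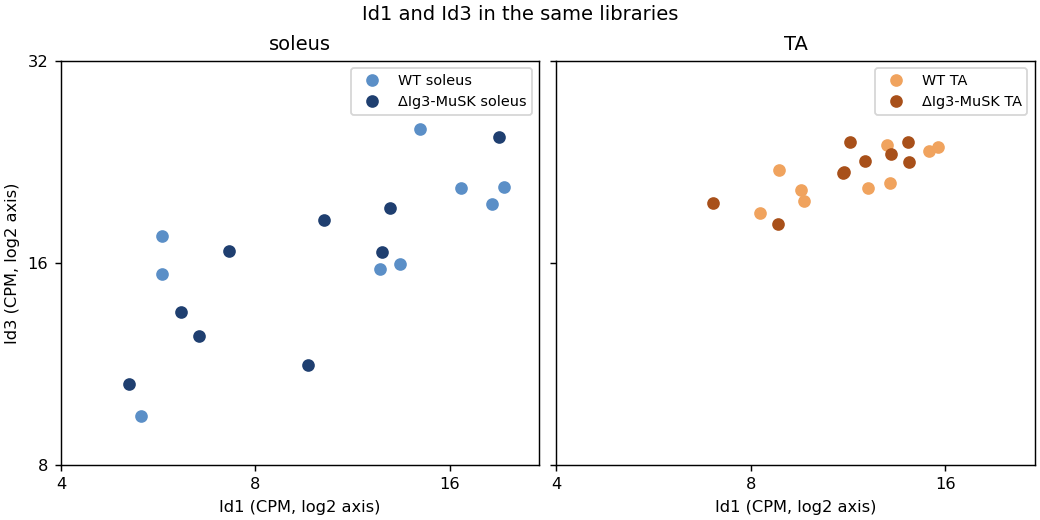
Id3 against Id1 in the 18 soleus libraries (left) and the 18 TA libraries (right), both in CPM on log2 axes, with WT in the lighter and ∆Ig3-MuSK in the darker color. Each point is a library. The points rise from lower left to upper right in both muscles, and the soleus points span the wider range on both axes.

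The inhibitory SMADs did not follow the Id genes across libraries. Smad6 correlated with Id1 at r = 0.05 in the soleus and −0.54 in the TA, and Smad7 with Id1 at −0.0053 and −0.35, none past the test. Over 60 relations of the 10 transcripts with 3 marker sums, Smad1 rose with the endothelial sum in the TA (r = 0.711, n = 18, permutation p = 0.00034, adjusted p = 0.0204, and rho = 0.748, adjusted p = 0.0240). Without 2 libraries this r was 0.653, and in the soleus it was −0.09. Smad4 followed the clock sum in the TA by r (0.716, permutation p = 0.00116, adjusted p = 0.0348) but not by rho (permutation adjusted p = 0.238). Id1 had r = 0.45 in the soleus and 0.57 in the TA with the immediate early sum, which did not pass (permutation adjusted p = 0.477 and 0.221). Across the 16 label numbers borne by both a TA and a soleus library, 0 of 10 transcripts had an adjusted p under 0.05, and Id1 had the highest r (0.539, permutation p = 0.0420, adjusted p = 0.420).

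The genes most like 4 of the 10 transcripts were found by r over the 18 libraries of a muscle, as a description, among 15534 genes in the soleus and 15286 in the TA. For Id1 in the soleus they were the small GTPase gene Rhob (0.885), the flow-responsive transcription factor gene Klf2 (0.865) and Gm28653 (0.856), and Id3 ranked at place 13. In the TA they were Serpini1 (0.840), Tmem204 (0.825) and the carbonic anhydrase gene Car14 (0.795), and Id3 ranked at place 4. For Id2 they were the cytoglobin gene Cygb (0.888), Fjx1 (0.870) and Ppib (0.868) in the soleus, and Dnah14 (0.894), Commd8 (0.871) and Gm26377 (0.865) in the TA. For Smad6 they were the corticotropin-releasing hormone receptor gene Crhr2 (0.870), Tnk2 (0.819) and Gramd4 (0.814) in the soleus, and Zfp395 (0.890), Gm45355 (0.849) and Bpnt1 (0.841) in the TA. For Smad9 they were Pygb (0.819), Net1 (0.819) and 1500012K07Rik (0.807) in the soleus, and Gm47512 (0.819), Entpd7 (0.806) and Cep120 (0.768) in the TA. No gene was among the first 3 for a transcript in both muscles.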

How the data were processed

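Whole soleus and TA muscles were profiled by non-stranded RNA-seq. Per the labels and the paper's methods, the authors trimmed reads with Trimmomatic, aligned them to mm10 with GSNAP and counted them per gene with htseq-count. The deposited values are these whole-number counts, one table per muscle, without normalization. The annotation release is not given in the sources used here. GENCODE M21 (GRCm38) gave symbols for 51633 of 51912 IDs and exon lengths. 0 columns of other samples were present.

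Groups came from the sample titles. The 10 genes and all gene lists were chosen with earlier results of these data known. Counts were tested in R 4.3.3 with edgeR 4.0.16: filterByExpr (minimum count 10, minimum total 15), TMM factors, glmQLFit and glmQLFTest, without covariates, Benjamini-Hochberg adjustment over all genes tested. Genotypes were compared over the 18 libraries of a muscle, and muscles and the interaction in 1 fit over 36. The limits, adjusted p under 0.05 and at least 1.2-fold, follow the paper's methods, which used DESeq2. Standard errors are the absolute log2 fold change over the square root of F. Correlations used log2 CPM (prior count 2) minus genotype means and 100000 permutations within genotype, 2-sided.

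No library was a copy of another: over the 153 pairs of a muscle, chi-square per degree of freedom was at least 11.7 in the soleus and 12.2 in the TA. Depth, from 43492062 to 78660422 counts, left counting error small except for Smad9 and Id4. The mean correlation of a library with its group was lowest for WT TA replicate 5 (0.980) and ∆Ig3-MuSK soleus replicate 8 (0.983).

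The text names the 10 genes, Musk, list genes called by genotype, for soleus against TA the 3 called genes of each pathway list with the largest absolute log2 fold change, and the 3 genes most like Id1, Id2, Smad6 and Smad9 by r among genes of at least 1 CPM. Car3 and Wnt11 are also named, as the paper's readouts in cultured cells. Alternatives were DESeq2 1.42.0, limma-voom (limma 3.58.1), RLE and upper-quartile factors, other filters, no fold minimum, a single fit, replicate and label number blocks, and each library left out. The procedures were tested on simulated data.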

Additional observations from a re-analysis of the deposited data

Results flagged for a closer look

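Among the 40 sets of 9 libraries (10 transcripts in 4 groups), 2 held a library set apart from the others by more than Dixon's limit, about as many as the 1 in 20 that chance flags. Smad5 was at 34.4 CPM in WT TA replicate 9, with the next library at 30.1 and the group median at 30.0 CPM. Smad7 was at 10.5 CPM in WT soleus replicate 8, with the next library at 8.60 and the group median at 8.10 CPM.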

How the results depend on the processing

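No transcript of the 10 was called by genotype or for the interaction under any alternative, and Smad9, Smad6 and Smad7 were called between the muscles in both genotypes wherever they were tested (2 to 4 calls in WT, 3 to 4 in ∆Ig3-MuSK). Requiring 10 counts in every library left Smad9 untested. Of 1886 recomputed values, 1812 kept direction and side of the limits, 14 passed where they had not, and 60, none called in either fit, changed sign. Id3 in WT was called with RLE (adjusted p = 0.0432) and upper-quartile factors (0.0435), limma-voom with the label number (0.0176), and without WT soleus replicate 1, 2 or 5, ∆Ig3-MuSK soleus replicate 1, 8 or 9, or WT TA replicate 7 (edgeR adjusted p from 0.0136 to 0.0484). Id4 in WT was called without WT soleus replicate 9 (log2 0.37) or WT TA replicate 9 (0.42). Sign changes were 0.020 for Id1 in the TA with sample quality weights, −0.068 (limma-voom) and −0.13 (edgeR) for Id1 between muscles in WT with the label number, −0.011 for the Id2 interaction and 0.0060 for Id2 in ∆Ig3-MuSK with it, and for Smad1 in ∆Ig3-MuSK −0.00074 with RLE factors, −0.0057 with upper-quartile factors, −0.0050 without a filter and −0.0033 with the label number. The cause was not tested.

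With each library left out, log2 values ran, by genotype, from −0.056 to 0.040 for Smad7 in the soleus and, in the TA, from −0.13 to 0.031 for Smad9 and −0.086 to 0.033 for Id1. Between muscles they ran in WT from −0.023 to 0.18 for Id1 and −0.11 to 0.041 for Id2, and in ∆Ig3-MuSK from −0.023 to 0.027 for Smad1 and −0.075 to 0.064 for Id2. Interactions ran from −0.059 to 0.10 for Id2, −0.18 to 0.044 for Smad9, −0.042 to 0.0022 for Smad4 and −0.085 to 0.0063 for Smad7.

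The replicate block changed no call among the 10 (Smad1 in the soleus −0.15, Smad6 in the TA −0.24). Same-numbered WT and ∆Ig3-MuSK libraries are different animals, and their deviations correlated over 0.1 in 3 of 9 pairs in the soleus and 2 of 9 in the TA. Over all genes, calls by genotype in the soleus numbered 185, 489 with DESeq2, 653 with limma-voom, 312 in the single fit and 347 with the replicate block, and in the TA 3, 237, 150, 692 and 0. They were 7 with upper-quartile factors and 10 without a filter in the TA. Interaction calls were 0, 855 with DESeq2, 9 with limma-voom, 4 with the strict filter and 1 with the label number. With a library left out, the soleus count ran from 22 to 602, the TA count from 3 to 9 and the interaction count from 0 to 1300.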
